A study of Homo sapiens and Mus musculus with 24 samples.

Results

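CFTR and 6 other genes of epithelial chloride secretion were followed through 4 lines of the human colorectal adenocarcinoma line Caco-2 and through purified colonic epithelial cells of mice. The 7 genes were CFTR, ANO1, CLCN2, KCNQ1, KCNE3, KCNN4 and ATP1B1. They were chosen by name, with earlier results of these data known, and were found by symbol among 58051 human gene identifiers and, ignoring case, among 29307 mouse genes. All 7 were present in both species. Their differences are therefore given as descriptions, with the standard error (SE) of each fitted value, and no test is drawn from them.

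The study asked what the loss of the DNA methyltransferase DNMT3A does to intestinal epithelial cells and what each of its isoforms, DNMT3A1 and DNMT3A2, contributes. WT are unedited Caco-2 cells. ΔDNMT3A cells carry a CRISPR/Cas9 deletion and were grown from single cells, so they are 1 clonal line. DNMT3A1 and DNMT3A2 are this ΔDNMT3A line with 1 isoform put back under a CMV promoter by piggyBac transposition and expanded as clones in puromycin, so the deletion is shared by all 3 edited lines. Analysed were 4 libraries each of WT, ΔDNMT3A and DNMT3A2 and 3 of DNMT3A1, of which replicate 3 was not analysed here. The labels give no other treatment. The mice were adult animals at steady state. Dnmt3a fl/fl mice carry loxP sites around exons of Dnmt3a, and Dnmt3a ΔIEC mice carry in addition Cre under the Villin promoter, which acts in intestinal epithelial cells. EpCAM-positive colonic cells of 4 mice of each genotype were sequenced.

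Chloride secretion draws water into the gut lumen. The sodium pump, of which ATP1B1 is a beta subunit, keeps cell sodium low, and the cotransporter SLC12A2 (NKCC1) uses that gradient to load chloride through the basolateral membrane. Basolateral potassium channels recycle potassium and hold the voltage that drives chloride out: KCNQ1 with its partner subunit KCNE3 opens with cyclic AMP, and KCNN4 opens with calcium. Chloride leaves through CFTR, the apical channel opened by cyclic AMP and cyclic GMP and mutated in cystic fibrosis, and through the calcium-activated channel ANO1 in some epithelia. CLCN2 is a voltage-gated chloride channel that has been placed in the basolateral membrane of surface colonocytes, where chloride is absorbed. In the normal colon CFTR is strongest in the crypts.

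Each of the 15 Caco-2 libraries held 22104408 to 42161299 counted read pairs, and each of the 8 mouse libraries 16943626 to 24921248. Levels are given as CPM, counts relative to the size of the library as scaled by TMM. WT cells held 64.6 ± 2.27 CPM of DNMT3A, ΔDNMT3A cells 20.7 ± 1.22, DNMT3A1 cells 38.02 ± 1.23 and the libraries labelled DNMT3A2 21.9 ± 1.40 CPM (SD, n = 4, 4, 3 and 4). The last difference from ΔDNMT3A did not pass the threshold (log2 fold change 0.07, SE 0.057, adjusted p = 0.272 by the quasi-likelihood test of edgeR, adjusted after Benjamini-Hochberg), so the counts do not show the isoform in the libraries labelled DNMT3A2, and each direction below that rests on them rests on that label. The paper reports each isoform as protein in its re-expressing line, by immunoblot and by staining of nuclei. That protein evidence was not examined here. Mouse Dnmt3a fell from 93.9 ± 7.70 to 46.1 ± 3.30 CPM (SD, n = 4 each; log2 fold change -1.03, SE 0.091, edgeR adjusted p = 0.000763). Of 8 epithelial markers, 8 were at 1 CPM or more in both mouse groups and in WT, ΔDNMT3A and DNMT3A1, and 7 in the libraries labelled DNMT3A2. Of 7 surface colonocyte markers, CA1, CA4, AQP8 and CEACAM20 were each below 0.5 CPM on average in every Caco-2 line. The other 3 had line means of 0.71 to 1.81 CPM (SLC26A3), 0.99 to 1.58 CPM (GUCA2A) and 0.74 to 16.1 CPM (KRT20), and all 7 were present in the mice. Nothing in the labels says that the Caco-2 replicates were separate cultures, so their spread may be technical.

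DNMT3A acts on CpG, the bases C and G in sequence, and the start sites of the 7 genes differ in how many they hold. RefSeq windows of 300 bases, 250 before and 50 after the start on GRCh38.p14, were matched for 6 of the 7 human genes. The letters CG, which read the same on both strands, stood 44 times in the window of CLCN2, 41 times in ATP1B1, 36 times in ANO1, 23 times in KCNE3, 12 times in CFTR and 6 times in KCNN4. Over all 35116 such windows the median was 14, and 96.0% held at least 1. Windows with at least as many as CLCN2 made up 4.2% of all, against 6.7% for ATP1B1, 12.7% for ANO1, 35.8% for KCNE3, 53.1% for CFTR and 66.3% for KCNN4. The 250 bases before the start are printed for CFTR, the 2 genes that were higher in ΔDNMT3A by the most (KCNE3 and ATP1B1) and the CpG-poorest of the 6 (KCNN4), 5′ to 3′ on the strand of the gene, with every CG in capitals. The CFTR stretch is chr7:117479775-117480024 on the plus strand, with 11 CG.
CFTR: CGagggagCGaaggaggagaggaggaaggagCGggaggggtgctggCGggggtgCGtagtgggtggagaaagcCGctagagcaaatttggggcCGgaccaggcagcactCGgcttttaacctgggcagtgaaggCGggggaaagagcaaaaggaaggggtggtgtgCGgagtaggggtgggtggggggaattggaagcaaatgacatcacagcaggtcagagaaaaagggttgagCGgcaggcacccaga
The KCNE3 stretch is chr11:74467550-74467799 on the minus strand, with 17 CG.
KCNE3: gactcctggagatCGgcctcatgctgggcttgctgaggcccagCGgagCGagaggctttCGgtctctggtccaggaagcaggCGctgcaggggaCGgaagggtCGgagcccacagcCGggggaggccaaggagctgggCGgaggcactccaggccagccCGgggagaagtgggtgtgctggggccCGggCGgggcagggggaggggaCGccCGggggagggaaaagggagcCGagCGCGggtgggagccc
The ATP1B1 stretch is chr1:169106440-169106689 on the plus strand, with 35 CG.
ATP1B1: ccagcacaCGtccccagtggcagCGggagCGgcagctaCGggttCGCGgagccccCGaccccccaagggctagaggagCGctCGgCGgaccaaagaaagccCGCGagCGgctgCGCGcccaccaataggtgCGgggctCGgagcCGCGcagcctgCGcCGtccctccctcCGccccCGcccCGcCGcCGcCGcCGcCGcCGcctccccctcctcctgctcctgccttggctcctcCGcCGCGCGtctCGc
The KCNN4 stretch is chr19:43780974-43781223 on the minus strand, with 5 CG.
KCNN4: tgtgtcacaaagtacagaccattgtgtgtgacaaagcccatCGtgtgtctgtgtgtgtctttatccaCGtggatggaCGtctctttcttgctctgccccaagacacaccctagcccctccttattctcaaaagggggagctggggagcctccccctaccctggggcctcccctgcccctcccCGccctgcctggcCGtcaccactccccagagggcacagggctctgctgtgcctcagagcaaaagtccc
The CG of ATP1B1 crowd much of the stretch, with a long gap near its 3′ end. Those of CFTR are spread thinly, and most of the KCNN4 stretch holds none. DNA methylation was not analysed here, so these letters say nothing of the methylation of these sites. The RefSeq starts of these 4 genes lie inside the gene models in which the reads were counted.

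CFTR (ENSG00000001626, chr7:117465784-117715971 on the plus strand of GRCh38) separated all 4 lines. Its 4 WT libraries stood at 208.8, 198.2, 202.4 and 200.7 CPM, and the 4 ΔDNMT3A libraries at 127.4, 126.5, 127.6 and 129.7 CPM. The 3 DNMT3A1 libraries stood at 309.0, 309.6 and 300.0 CPM, and the 4 labelled DNMT3A2 at 103.8, 99.6, 98.3 and 105.4 CPM. No line's libraries overlapped those of the next line in the order DNMT3A1, WT, ΔDNMT3A, DNMT3A2. The means were 306.2 ± 5.36 (SD, n = 3), 202.5 ± 4.52, 127.8 ± 1.36 and 101.8 ± 3.37 CPM (SD, n = 4 each). CFTR was thus 0.63 times its WT level in ΔDNMT3A (log2 fold change -0.68, SE 0.027). Against ΔDNMT3A it was 2.40 times higher in DNMT3A1 (1.26, SE 0.029) and 0.79 times as high in the libraries labelled DNMT3A2 (-0.33, SE 0.027), so that the channel stood above its WT level in 1 isoform line and furthest below it in the other. The CFTR exons share 8 bases with the antisense gene CFTR-AS1, listed at 0 in all libraries, and 51 with CTTNBP2, whose mean was under 1 CPM in every line.

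**Figure D1:**
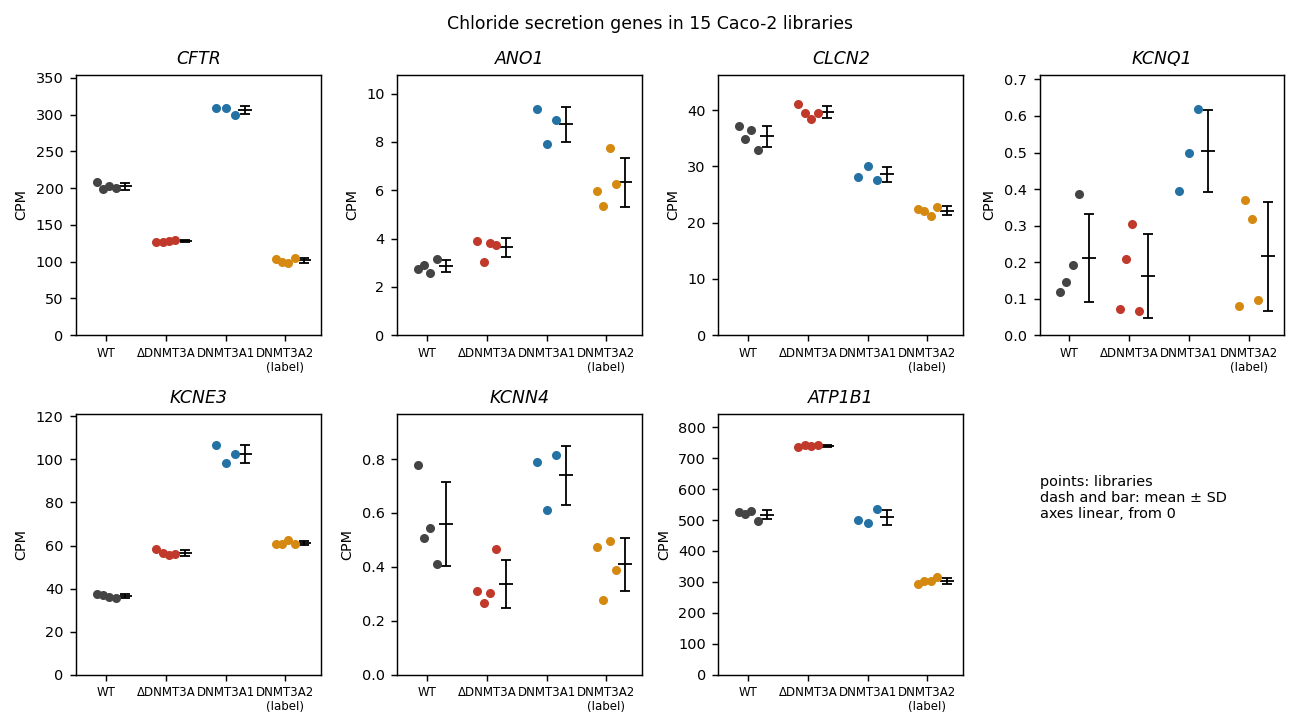
Level in CPM (vertical axis, linear from 0) of each of the 7 genes in every Caco-2 library (points) of the 4 lines, with the mean and SD of each line (dash and bar). CFTR falls into 4 separate clusters from 98.3 to 309.6 CPM, ATP1B1 is highest in ΔDNMT3A, KCNE3 is highest in DNMT3A1, and KCNQ1 and KCNN4 stay below 1 CPM.

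ANO1 (ENSG00000131620, chr11:70078302-70189528, plus strand), the calcium-activated chloride channel, was scarce. It stood at 2.75, 2.90, 2.58 and 3.16 CPM in the WT libraries and at 3.92, 3.05, 3.82 and 3.76 CPM in ΔDNMT3A. It stood at 9.36, 7.93 and 8.90 CPM in DNMT3A1 and at 5.97, 5.35, 7.75 and 6.26 CPM in the libraries labelled DNMT3A2. WT and ΔDNMT3A overlapped, and both isoform lines lay above them, separated from each other only between 7.75 and 7.93 CPM. Against ΔDNMT3A the fold was 2.40 in DNMT3A1 (log2 1.27, SE 0.1) and 1.74 in the libraries labelled DNMT3A2 (log2 0.80, SE 0.111). The step from WT to ΔDNMT3A was 0.34 (SE 0.110). It passed the threshold over all 4 replicates but within neither sequencing lane alone, where it was 0.31 and 0.37. The RefSeq start of ANO1 lies upstream of the gene model in which these reads were counted. ANO1 shares 646 exon bases (10.7% of its own) with ANO1-AS1, which was at or near 0 CPM in every line and was counted on the other strand.

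CLCN2 (ENSG00000114859, chr3:184346185-184361651, minus strand), the chloride channel of surface colonocytes, varied less. Its libraries stood at 37.1, 34.9, 36.5 and 32.8 CPM in WT and at 41.1, 39.4, 38.5 and 39.5 CPM in ΔDNMT3A. They stood at 28.1, 30.1 and 27.6 CPM in DNMT3A1 and at 22.5, 22.1, 21.1 and 22.9 CPM in the libraries labelled DNMT3A2. No 2 lines overlapped, and both isoform lines were below WT as well as below ΔDNMT3A. The log2 difference of ΔDNMT3A from WT was 0.16 (SE 0.043). That of DNMT3A1 from ΔDNMT3A was -0.47 (SE 0.049), and that of the libraries labelled DNMT3A2 was -0.85 (SE 0.044). CLCN2 shares 91 exon bases (1.1%) with FAM131A on the opposite strand, whose line means ran from 2.86 CPM in the libraries labelled DNMT3A2 to 12.04 CPM in DNMT3A1.

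KCNE3 (ENSG00000175538, chr11:74454841-74467729, minus strand), the subunit that holds KCNQ1 channels open in colonic crypts, was lowest in WT. The WT libraries stood at 37.7, 37.0, 36.0 and 35.7 CPM and those of ΔDNMT3A at 58.3, 56.6, 55.5 and 55.9 CPM. The DNMT3A1 libraries stood at 106.6, 98.5 and 102.7 CPM and those labelled DNMT3A2 at 60.5, 60.8, 62.4 and 60.8 CPM. All 4 lines were apart, although ΔDNMT3A and the libraries labelled DNMT3A2 were only 58.3 against 60.5 CPM apart at their edges. KCNE3 was 1.53 times higher in ΔDNMT3A than in WT (log2 0.62, SE 0.035), and 1.81 times higher again in DNMT3A1 than in ΔDNMT3A (log2 0.86, SE 0.038), so that it stood 2.80-fold above WT there (log2 1.49, SE 0.040). The libraries labelled DNMT3A2 differed from ΔDNMT3A by 0.11 (SE 0.031), a step that did not pass the threshold within lane 5 alone (0.08). KCNE3 shares 609 exon bases (16.6%) with the antisense gene ENSG00000254928, which held at most 5 counts in any library.

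The pore subunit that KCNE3 partners, KCNQ1 (ENSG00000053918, chr11:2444684-2849109, plus strand), was near the limit of detection, with 2 to 22 read pairs per library. Its libraries held 4, 4, 6 and 15 counts in WT and 3, 7, 9 and 2 in ΔDNMT3A. They held 12, 13 and 22 counts in DNMT3A1 and 2, 8, 9 and 3 in those labelled DNMT3A2. The means were 0.21 ± 0.12, 0.16 ± 0.11, 0.50 ± 0.11 and 0.22 ± 0.15 CPM (SD, n = 4, 4, 3 and 4), and only DNMT3A1 stood apart from the line next to it. KCNQ1 passed the filter on low counts only in the 3 comparisons that include DNMT3A1. Without DNMT3A1 replicate 4, its differences from WT (0.99) and from the libraries labelled DNMT3A2 (1.07) no longer passed the threshold, nor did the first within lane 6 alone (1.05) or the second within lane 5 alone (1.04). The only DNMT3A1 library in lane 6 was replicate 4. Its exons share 121 bases with the antisense transcript KCNQ1OT1, which was far more abundant, with a mean of 133.4 CPM in WT against 93.4 CPM in the libraries labelled DNMT3A2. The reads were counted by strand, and reads from the other strand were not assigned to KCNQ1.

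KCNN4 (ENSG00000104783, chr19:43766533-43781257, minus strand), the calcium-activated potassium channel of intermediate conductance, was also below 1 CPM in every library. The WT libraries held 26, 14, 17 and 16 counts and those of ΔDNMT3A 13, 9, 9 and 14. The DNMT3A1 libraries held 24, 16 and 29 counts and those labelled DNMT3A2 12, 6, 14 and 12. Every neighbouring pair in the order DNMT3A1, WT, DNMT3A2, ΔDNMT3A overlapped. The fitted difference of ΔDNMT3A from WT was -0.75 (SE 0.292). It did not pass the threshold without WT replicate 1 (-0.54), without ΔDNMT3A replicate 1 (-0.70), 2 (-0.65) or 3 (-0.71), within lane 6 (-0.30), with DESeq2 (-0.75) or without the filter on low counts (-0.74). DNMT3A1 stood 1.16 (SE 0.282) above ΔDNMT3A on the log2 scale, past the threshold except within lane 6 alone (1.08). The only DNMT3A1 library in that lane was replicate 4.

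ATP1B1 (ENSG00000143153, chr1:169105697-169132722, plus strand), the beta subunit that carries the sodium pump to the membrane, was the most abundant of the 7 per length. Its WT libraries stood at 526.1, 519.1, 529.4 and 497.0 CPM and those of ΔDNMT3A at 738.1, 742.8, 738.2 and 744.6 CPM. The DNMT3A1 libraries stood at 501.7, 489.8 and 536.4 CPM, and those labelled DNMT3A2 at 293.6, 303.3, 302.7 and 316.5 CPM. ΔDNMT3A lay above all other lines, DNMT3A1 and WT overlapped, and the libraries labelled DNMT3A2 lay far below both. The log2 difference of ΔDNMT3A from WT was 0.51 (SE 0.026), or 1.42-fold. Against ΔDNMT3A, DNMT3A1 differed by -0.54 (SE 0.033) and the libraries labelled DNMT3A2 by -1.29 (SE 0.023). DNMT3A1 differed from WT by -0.03 (SE 0.036), a value whose sign turned within lane 6 alone (0.06) and without DNMT3A1 replicate 2 (0.006). Of DNMT3A1, lane 6 held replicate 4 only. ATP1B1 shares 192 exon bases (6.5%) with NME7 on the opposite strand, which ran from 13.4 CPM in ΔDNMT3A to 21.6 CPM in the libraries labelled DNMT3A2.

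Counted over the list, 6 of the 7 genes were tested in ΔDNMT3A against WT and 6 passed an adjusted p under 0.05, with 4 higher (ANO1, CLCN2, KCNE3 and ATP1B1) and 2 lower (CFTR and KCNN4). In that comparison 62.2% of all 16654 genes tested passed, 31.2% higher and 31.0% lower, so passing set none of them apart, and the libraries of the 2 lines did not overlap for 4 of the 6, against 55.4% of all genes. In DNMT3A1 against ΔDNMT3A, 7 of 7 passed, 5 higher and 2 lower (CLCN2 and ATP1B1), where 60.7% of all genes passed, 30.4% higher and 30.3% lower, and the libraries were apart for 7 of 7 against 59.8% of all. In the libraries labelled DNMT3A2 against ΔDNMT3A, 5 of 6 tested passed, 2 higher (ANO1 and KCNE3) and 3 lower (CFTR, CLCN2 and ATP1B1), where 67.9% of all passed, 33.8% higher and 34.1% lower, and the libraries were apart for 5 of 6 against 61.4% of all. These comparisons share the 4 ΔDNMT3A libraries. KCNQ1 entered only the one with DNMT3A1, its highest line, and passed the filter on low counts only through it. CFTR and ATP1B1 moved in opposite directions both from WT to ΔDNMT3A and from ΔDNMT3A to DNMT3A1, but in the same direction from ΔDNMT3A to the libraries labelled DNMT3A2.

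Set against WT directly, 5 of 7 passed in DNMT3A1 (4 higher, 1 lower, against 65.3% of all genes, 32.6% higher and 32.7% lower) and 5 of 6 in the libraries labelled DNMT3A2 (2 higher, 3 lower, against 68.7% of all genes, 34.3% higher and 34.4% lower). The libraries were apart from WT for 5 of 7 genes and 5 of 6, where this held for 63.4% and 62.2% of all genes. CFTR stood 0.59 above WT in DNMT3A1 (SE 0.030) and 1.01 below it in the libraries labelled DNMT3A2 (log2 fold change -1.01, SE 0.026). ANO1 was above WT in both, by 1.61 (SE 0.099) and 1.14 (SE 0.111), and so was KCNE3, by 1.49 and 0.72. Between the isoform lines, all 7 genes were higher in DNMT3A1 and 7 passed, where 68.5% of all genes passed, 34.5% higher in DNMT3A1 and 33.9% lower, and the libraries were apart for all 7 against 66.6% of all genes. The log2 differences were 1.59 for CFTR (SE 0.029), 0.75 for KCNE3 (SE 0.035), 0.75 for ATP1B1 (SE 0.032), 0.46 for ANO1 (SE 0.1) and 0.37 for CLCN2 (SE 0.051). KCNQ1 (1.27, SE 0.421) and KCNN4 (0.85, SE 0.295) had the widest errors. In each comparison with DNMT3A1 here, KCNQ1 passed the filter on low counts only through that line, its highest. The call of KCNN4 was lost with DESeq2, within either lane and without DNMT3A1 replicate 4 (0.76).

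**Figure D2:**
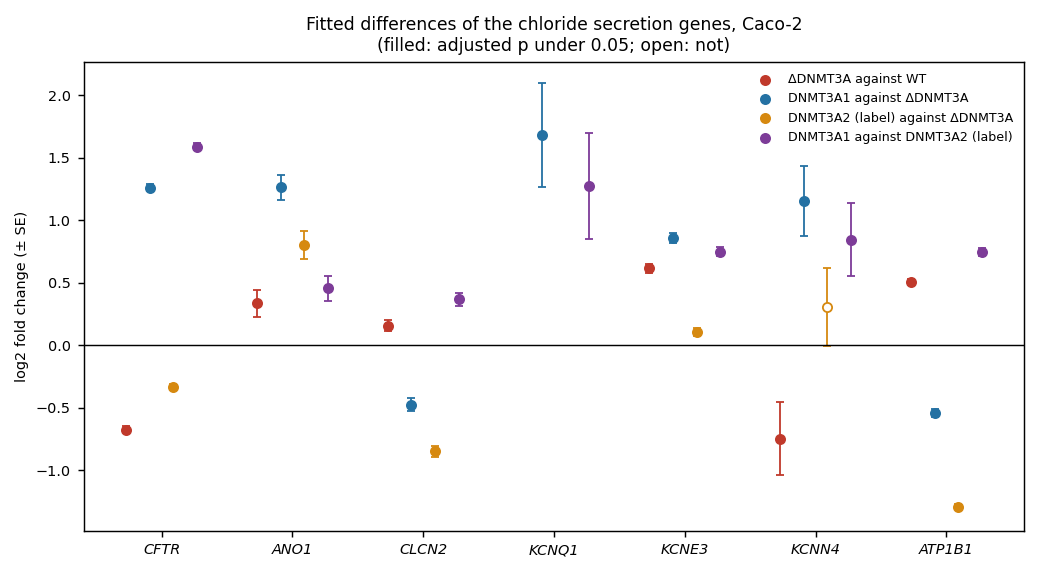
Log2 fold change (vertical axis) with SE for each of the 7 genes in 4 Caco-2 comparisons, filled where the adjusted p was under 0.05. CFTR and ATP1B1 lie on opposite sides of 0 in ΔDNMT3A against WT (-0.68 and 0.51), and all 7 genes lie above 0 in DNMT3A1 against the libraries labelled DNMT3A2. KCNQ1 has no value in 2 comparisons, where it was not tested.

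Levels of different genes were compared per kilobase of exon. In WT Caco-2 cells ATP1B1 stood at 174.8 ± 4.91 CPM per kilobase, CFTR at 23.8 ± 0.53, KCNE3 at 9.95 ± 0.25, CLCN2 at 4.14 ± 0.22, ANO1 at 0.47 ± 0.04, KCNN4 at 0.17 ± 0.05 and KCNQ1 at 0.053 ± 0.03 (SD, n = 4). In Dnmt3a fl/fl colonic cells the order was Atp1b1 (410.8 ± 89.4), Clcn2 (69.4 ± 7.62), Kcne3 (34.4 ± 5.39), Ano1 (28.7 ± 8.51), Cftr (27.2 ± 6.68), Kcnn4 (19.5 ± 3.31) and Kcnq1 (19.2 ± 3.82, SD, n = 4). There the ranges of mean ± SD of Ano1 and Cftr overlapped each other and those of Kcne3, Kcnn4 and Kcnq1. Kcnn4 and Kcnq1 overlapped too, so the order within these pairs was not resolved. Per length, CFTR exceeded ANO1 by a median of 51 times in WT cells, 24 times in the ΔDNMT3A line, 23.8 times with DNMT3A1 and 12.1 times in the libraries labelled DNMT3A2, but was 0.93 times Ano1 in fl/fl mice and 0.75 times in ΔIEC mice. KCNE3 exceeded its partner KCNQ1 by 99.8 to 908 times over the Caco-2 libraries, with only 2 to 22 counts of KCNQ1 behind each ratio, so that no order of the lines can be read from it. In fl/fl and ΔIEC mice the median ratio was 1.67 and 2.18. ATP1B1 made up a median of 74.8% of the 3 beta subunits ATP1B1, ATP1B2 and ATP1B3 per length in WT cells, 79.2% in the ΔDNMT3A line, 79.4% with DNMT3A1 and 63.2% in the libraries labelled DNMT3A2, without overlap between the last and any other line (62.9 to 63.4% against 74.1% or more). In the mice the share was 96.5% and 97.0%.

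Each of the 7 genes was set beside its neighbours on the chromosome, since clones can differ over whole stretches of genes. In ΔDNMT3A against WT, the 50 tested genes nearest to CFTR on chromosome 7, 25 on either side, had a median log2 fold change of -0.38 (quartiles -0.54 and -0.12), and 42 of the 50 were below 0, while CFTR itself stood at -0.68. Around CLCN2 on chromosome 3 the median was 0.58, with 45 of 50 above 0, against 0.16 for CLCN2. In the libraries labelled DNMT3A2 against ΔDNMT3A the CLCN2 stretch had a median of -0.74 with 41 of 50 below 0, close to the -0.85 of CLCN2. Around the low-count KCNQ1 it was -0.42. The CFTR stretch had medians of 0.17 and 0.18 in DNMT3A1 and the libraries labelled DNMT3A2 against ΔDNMT3A, where CFTR stood at 1.26 and -0.33. The stretches around ANO1, KCNE3, KCNN4 and ATP1B1 had medians between -0.16 and 0.17 in these 3 comparisons. Between the isoform lines the stretch around CLCN2 had a median of 0.75 with 46 of 50 above 0, against 0.37 for CLCN2, and that around KCNQ1 had 0.61 with 41 of 50 above 0, against 1.27 for KCNQ1. The median was 0.29 around KCNE3 (35 of 50 above 0) and between -0.05 and 0.02 around the other 4 genes. Copy number was not measured here, and its part in these values was not tested.

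**Figure D3:**
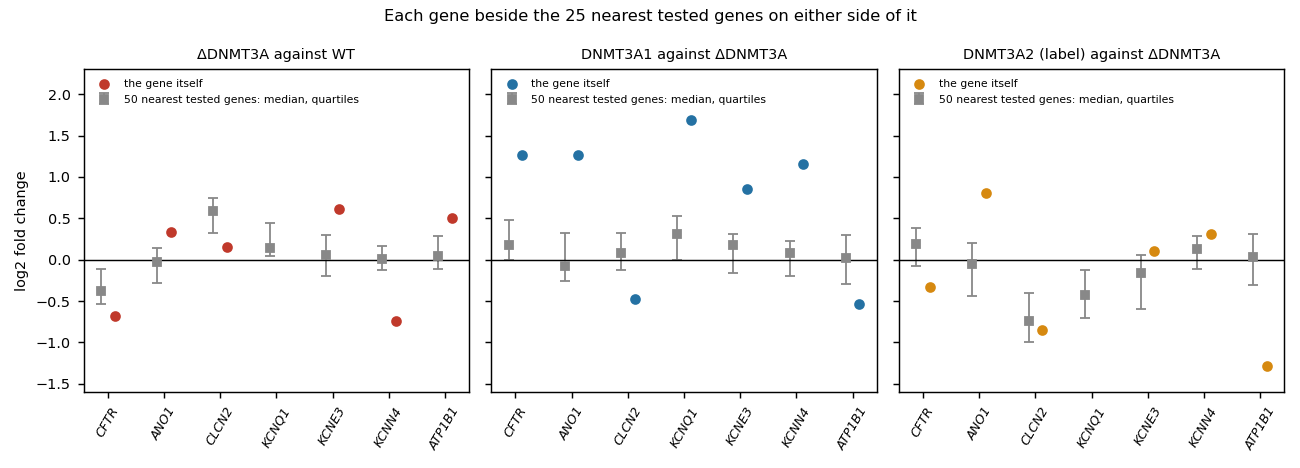
Log2 fold change (vertical axis) of each of the 7 genes (round points) beside the median and quartiles of the 50 tested genes nearest to it (grey squares and bars) in 3 Caco-2 comparisons. The stretch around CFTR lies below 0 in ΔDNMT3A against WT (median -0.38), and that around CLCN2 lies above 0 there (0.58) and below 0 in the libraries labelled DNMT3A2 against ΔDNMT3A (-0.74).

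The genes whose pattern over the 4 lines was most like that of CFTR were picked by the root mean square difference of centred log2(CPM + 1) line means among 13760 genes with a mean of at least 1 CPM. They were SERPINA10 (difference 0.052), APOM (0.080), LOXL1-AS1 (0.106), ARHGAP44 (0.113) and TRPM6 (0.130), a list that includes an inhibitor of coagulation proteases (SERPINA10), an apolipoprotein (APOM) and an epithelial magnesium channel (TRPM6). In the order WT, ΔDNMT3A, DNMT3A1 and DNMT3A2, SERPINA10 stood at 17.1, 11.5, 27.1 and 8.96 CPM and TRPM6 at 9.96, 7.64, 17.0 and 5.77 CPM. All 5 lie on chromosomes other than that of CFTR. With 4 lines the pattern rests on 4 points, which share the same libraries.

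Of 78 other genes of the secretory pathway, listed by role with earlier results of these data known, 59 had enough counts to be tested in ΔDNMT3A against WT. Of these, 22 rose and 19 fell (edgeR, adjusted after Benjamini-Hochberg over every gene tested), or 69.5% against 62.2% of all genes tested, with a median log2 fold change of -0.02 against -0.005 over all genes. GUCY2C, the receptor for guanylin, uroguanylin and bacterial heat-stable enterotoxin that makes the cyclic GMP which opens CFTR, rose the most among those with a mean of at least 1 CPM. It went from 5.96 ± 0.61 to 28.5 ± 1.72 CPM (SD, n = 4 each; log2 fold change 2.24, SE 0.070, edgeR adjusted p = 1.66e-18). The potassium channels KCNK6 (2.04) and KCNMA1 (1.5), the water channel AQP1 (1.70) and the scarce kinase STK39, or SPAK, which activates SLC12A2 (1.17), also rose. Of the 5 other potassium channels tested, which include KCNK6 and KCNMA1, 3 rose and 0 fell. Of all genes, 31.2% were higher past the threshold and 31.0% lower, so 3 of 5 passing did not set this short list apart.

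Of 10 genes of cyclic nucleotide and WNK-SPAK signalling tested in ΔDNMT3A against WT, 7 fell and 1 rose (80.0% passed, against 62.2% of all genes, of which 31.0% were lower and 31.2% higher). Among them PDE5A, which degrades cyclic GMP, fell by 1.06 on the log2 scale (SE 0.075), and PDE4D, which degrades cyclic AMP, fell by 0.46 (SE 0.035). The kinase OXSR1, a relative of STK39, fell by 0.55, and PRKG2, the cyclic GMP-dependent kinase that acts on CFTR, fell by 0.35 (edgeR adjusted p = 0.00124). VIPR1, a receptor of vasoactive intestinal peptide, fell by 0.94. The chloride loader SLC12A2 fell from 243.5 ± 4.68 to 200.5 ± 3.86 CPM (SD, n = 4 each, log2 fold change -0.29, edgeR adjusted p = 1.18e-09). SLC26A3, the chloride-bicarbonate exchanger of surface colonocytes, was under 1 CPM in both lines (log2 fold change -0.13, edgeR adjusted p = 0.62). Of 11 genes that anchor or traffic CFTR, 4 rose and 4 fell (72.7% passed, against 62.2% of all genes).

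In DNMT3A1 against ΔDNMT3A, 57 of the 78 were tested, and 16 rose and 28 fell (77.2% against 60.7% of all genes, median -0.17 against 0.01). PDE5A rose from 6.54 ± 0.73 (SD, n = 4) to 24.5 ± 1.16 CPM (SD, n = 3), by 1.92 on the log2 scale (edgeR adjusted p = 1.83e-14). Also up were SCNN1A, the alpha subunit of the epithelial sodium channel (1.57), PRKG2 (1.37), STK39 (1.26) and VIPR1 (1.13). Of the 9 secretagogue receptors and ligands tested, 6 fell and 1 rose (77.8% passed, against 60.7% of all genes, 30.4% higher and 30.3% lower). The nucleotide receptors P2RY2 (-1.75) and P2RY6 (-1.51), the protease-activated receptor F2RL1 (-1.0) and the adenosine receptor ADORA2B (-0.90) were among them. AQP1 fell by 3.58, from 3.95 ± 0.42 to 0.32 ± 0.07 CPM. The difference from ΔDNMT3A did not pass the threshold for GUCY2C (27.7 ± 1.6 CPM, log2 fold change -0.04, SE 0.056, edgeR adjusted p = 0.59), while SLC12A2 rose by 0.44.

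In the libraries labelled DNMT3A2 against ΔDNMT3A, 57 were tested, and 17 rose and 32 fell (86.0% against 67.9% of all genes, median -0.23 against 0.004). PDE4D rose from 72.6 ± 1.71 to 256.8 ± 2.87 CPM (SD, n = 4 each), by 1.82 (edgeR adjusted p = 1.06e-24). SLC12A2 rose to 389.0 ± 11.3 CPM, by 0.95 (edgeR adjusted p = 1.01e-19), its highest level of the 4 lines, where CFTR and ATP1B1 were at their lowest. SLC26A3 (1.14), STK39 (1.01) and SCNN1A (0.91) rose as well. GUCY2C fell by 2.04 to 6.89 ± 0.87 CPM. With it fell AQP1 (-4.16), P2RY2 (-2.27), the water and glycerol channel AQP3 (-1.97) and the sodium-proton exchanger SLC9A2 (-1.38). Each of the 5 other potassium channels tested fell, and of 5 genes of sodium and water absorption tested, 4 fell and 1 rose. Of all genes, 34.1% were lower past the threshold and 33.8% higher. With 5 genes in each list, these counts are a description.

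**Figure D4:**
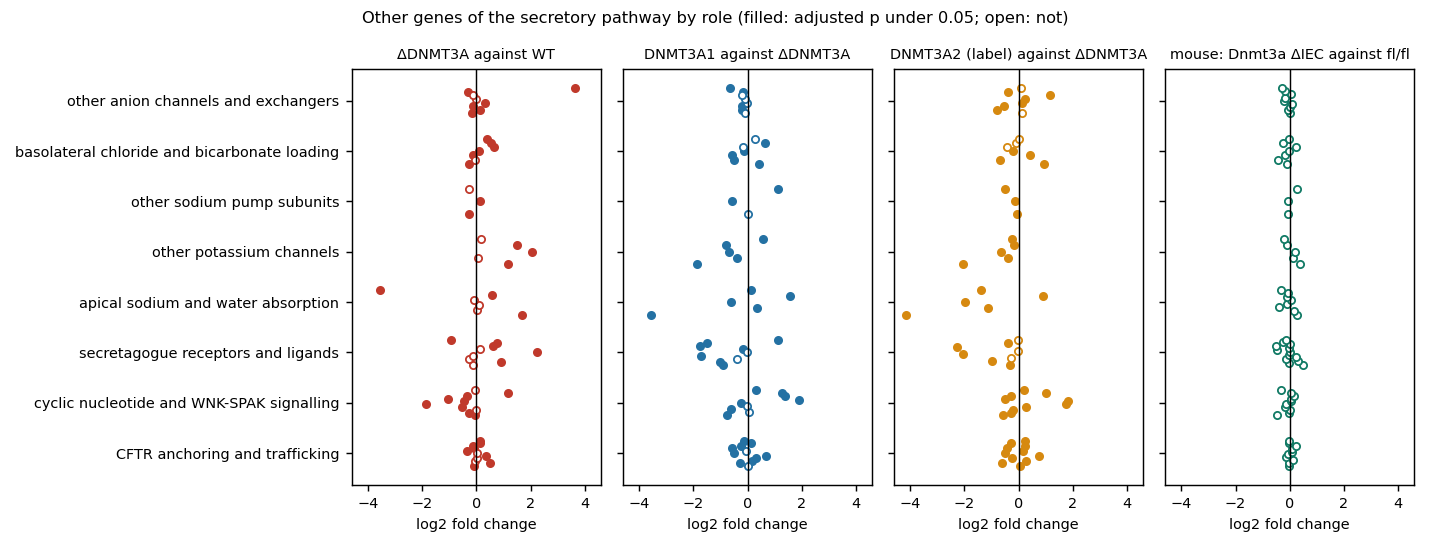
Log2 fold change (horizontal axis) of the other genes of the secretory pathway by role (rows) in 3 Caco-2 comparisons and in the mouse comparison, filled where the adjusted p was under 0.05. Of 59, 57 and 57 genes tested in Caco-2, 41, 44 and 49 are filled, and of 65 tested in the mouse, 0 are filled.

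Against WT, 49 of 59 pathway genes passed in DNMT3A1 (22 higher and 27 lower, where 65.3% of all genes passed) and 49 of 58 in the libraries labelled DNMT3A2 (19 and 30, where 68.7% passed). Between the isoform lines 45 of 56 passed, 23 higher and 22 lower in DNMT3A1, where 68.5% of all genes passed. GUCY2C was 2.21 above WT in DNMT3A1 (edgeR adjusted p = 4.57e-19) and 0.20 above it in the libraries labelled DNMT3A2 (edgeR adjusted p = 0.0622). Between the 2 isoform lines GUCY2C differed by 2.00 (edgeR adjusted p = 5.14e-18) and SLC12A2 by -0.51 (edgeR adjusted p = 1.89e-14), the second in the opposite direction to the 7 chloride secretion genes. Cell markers moved with these groups too. Among 8 goblet cell markers AGR2, a secretory chaperone, made up nearly all of the summed level, with means of 153.3, 254.0, 292.5 and 151.0 CPM in the order WT, ΔDNMT3A, DNMT3A1 and DNMT3A2. In that order TFF3 stood at 5.67, 3.84, 7.22 and 4.51 CPM, and MUC2, CLCA1, FCGBP and SPDEF were below 0.5 CPM in every line. The sum of the 7 surface colonocyte markers was 17.1 to 19.3 CPM in ΔDNMT3A and at most 4.83 CPM elsewhere, with KRT20 at 16.1 CPM against 0.74 to 1.82 CPM. Their part in the values of the chloride secretion genes was not tested.

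In the mice, none of the 7 genes differed past the threshold between ΔIEC and fl/fl (0 of 7 by edgeR and by DESeq2, and 0 at an unadjusted p under 0.05), in a comparison where 0.691% of 14626 genes passed, 0.602% higher and 0.0889% lower. The genotypes' libraries were apart for 0 of the 7, against 10.3% of all genes. Cftr (ENSMUSG00000041301, chr6:18170687-18322768, plus strand of GRCm38) stood at 194.1, 181.6, 288.3 and 180.5 CPM in fl/fl and at 206.2, 180.4, 131.8 and 129.7 CPM in ΔIEC. The groups overlapped, with 1 fl/fl library far above and 2 ΔIEC libraries below the rest. The log2 difference was -0.38 (SE 0.193), and -0.52 to -0.19 with single libraries left out, the latter without fl/fl replicate 3. Kcnn4, on chromosome 7, stood at 41.9, 41.8, 53.6 and 36.1 CPM in fl/fl and at 43.5, 40.6, 31.0 and 26.5 CPM in ΔIEC, a difference of -0.29 (SE 0.170). Kcnq1 stood at 87.0, 56.7, 92.1 and 78.3 CPM against 78.7, 73.5, 69.9 and 55.8 CPM (-0.18, SE 0.154). For these 3 genes the ΔIEC mean was lower and the ranges overlapped.

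Kcne3 stood at 59.3, 66.0, 70.8 and 48.6 CPM in fl/fl and at 83.45, 69.95, 54.23 and 52.7 CPM in ΔIEC (0.09, SE 0.163). Ano1 stood at 151.4, 254.4, 134.2 and 176.0 CPM against 151.9, 159.1, 182.0 and 187.6 CPM (-0.07, SE 0.179). The signs of both turned when single libraries were left out. Clcn2 had means of 418.1 ± 45.9 and 391.3 ± 52.5 CPM (-0.10, SE 0.127), and Atp1b1 of 1266 ± 275 and 1336 ± 286 CPM (SD, n = 4 each, 0.08, SE 0.194). The SEs of the 7 genes ran from 0.127 to 0.194, so a difference as small as that of CLCN2 in ΔDNMT3A Caco-2 cells (0.16) was not detectable at this spread between mice. The counting was done without strand and left out read pairs that overlap 2 genes, which touches 575 exon bases of Atp1b1 (18.7%) shared with Nme7 (10.7 ± 1.88 and 11.5 ± 0.30 CPM) and 129 of Cftr (1.7%) shared with Gm15592 (10.96 ± 4.71 and 5.22 ± 2.22 CPM). Clcn2 shares 85 exon bases with Fam131a (1.20 ± 0.40 and 0.97 ± 0.13 CPM) and 82 with Polr2h (11.96 ± 0.69 and 14.3 ± 1.80 CPM), and Kcne3 shares 9 with Gm34821 (0.65 ± 0.34 and 0.69 ± 0.05 CPM).

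**Figure D5:**
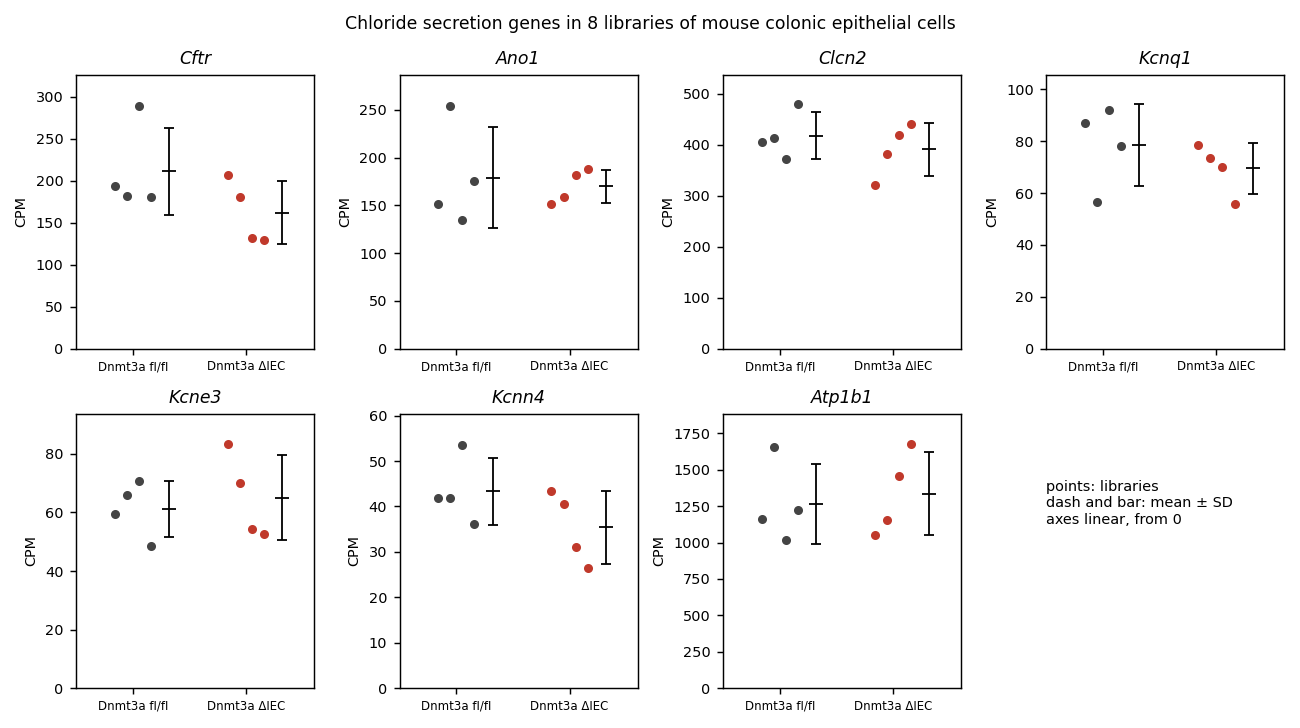
Level in CPM (vertical axis, linear from 0) of each of the 7 genes in every mouse library (points), with the mean and SD of each genotype (dash and bar). The 2 genotypes overlap for every gene, and the highest Cftr library is a fl/fl library at 288.3 CPM.

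The 7 mouse genes fell into groups by the order of the libraries within a genotype. In ΔIEC the 4 libraries had 1 order for Cftr, Kcnq1, Kcne3 and Kcnn4 and exactly the reverse order for Ano1, Clcn2 and Atp1b1. In fl/fl, replicate 3 was the highest for Cftr, Kcnq1, Kcne3 and Kcnn4 and the lowest for Ano1, Clcn2 and Atp1b1. The same replicate had the highest summed level of 8 crypt base and cycling markers (793.7 CPM, against 559.7, 427.4 and 383.5 CPM in replicates 1, 2 and 4) and the lowest of 7 surface colonocyte markers. Among ΔIEC libraries the crypt base and cycling sum was 600.8, 462.6, 319.9 and 358.5 CPM in replicates 1 to 4, highest where Cftr was highest, but with replicates 3 and 4 in the other order. The sums of 4 deep crypt secretory markers (1585, 1174, 973.2 and 889.0 CPM) and of the tuft cell markers had exactly the order of Cftr there. Most of the deep crypt secretory sum was Agr2 (means of 510.6 CPM in fl/fl and 666.8 CPM in ΔIEC) and Spink4 (199.3 and 316.6 CPM). Both are also among the goblet markers, whose sum did not have the order of Cftr. In fl/fl the deep crypt secretory sum did not have that order either. Among ΔIEC libraries the surface and epithelium sums had the order of Ano1, Clcn2 and Atp1b1. In fl/fl it was the epithelium, goblet and tuft sums that had exactly the order of Ano1 and Atp1b1, and the crypt base and cycling sum that of Cftr and Kcnn4. With 10 marker sums and 4 libraries a genotype, these orders are a description. In bulk RNA, fewer cells of a type and less RNA per cell cannot be told apart.

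Marker sums of other cells were compared between the genotypes in the same way. The 6 tuft cell markers summed to 51.5 to 72.2 CPM in fl/fl and 154.4 to 178.2 CPM in ΔIEC, and the 10 immune markers to 3.68 to 7.97 and 8.50 to 23.9 CPM. The 10 stromal, muscle and vessel markers summed to 20.0 to 26.5 and 16.4 to 21.2 CPM. For Ano1, which also marks the interstitial cells of Cajal in the gut wall, Kit stood at 56.4 and 54.0 CPM and Etv1 at 1.40 and 0.81 CPM, and Kit is expressed by deep crypt secretory cells too. The part of these cells in the values of the 7 genes was not tested.

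Of 76 listed mouse genes of the pathway, 65 were tested and 0 passed in edgeR (0.691% of all genes), with 2 at an unadjusted p under 0.05 and a median log2 fold change of -0.04 against -0.004 over all genes. DESeq2 called 1, the kinase Wnk1, which was named here after its value was seen. Slc26a3 stood at 2323 ± 975 and 2052 ± 395 CPM (SD, n = 4 each, edgeR adjusted p = 0.799). Slc12a2 stood at 383.8 ± 69.5 and 355.0 ± 93.2 CPM (edgeR adjusted p = 0.84). Gucy2c, which was raised in ΔDNMT3A Caco-2 cells, stood at 509.1 ± 60.3 and 511.3 ± 15.6 CPM, a log2 fold change of 0.006 (SE 0.111, edgeR adjusted p = 0.987). Neither the directions of CFTR, KCNE3 and ATP1B1 in ΔDNMT3A Caco-2 cells nor their absence could be read from the mice: the differences there were within the spread between libraries.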

How the data were processed

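Deposited gene counts of 15 Caco-2 and 8 mouse RNA-seq libraries were the starting point. To make them, the authors trimmed reads with Trim Galore 0.4.4, dropping those that became too short, aligned them with STAR 2.5.2b to GRCh38 or GRCm38 and counted read pairs per gene. Per the file headers, the Caco-2 counts were made on the reverse strand with featureCounts 1.5.2 and the mouse counts without strand with featureCounts 1.6.4. Pairs that overlap 2 genes or map to several places were not counted, and no value was normalized before deposit. Groups and replicate numbers came from the labels, and lanes from the names of the count columns (Caco-2 replicates 1 and 2 in lane 5, 3 and 4 in lane 6). A lane alone thus holds at most 2 libraries a line, and lane 6 only replicate 4 of DNMT3A1.

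Symbols were matched for 41445 of 58051 human identifiers (71.4%). Each comparison was fitted on its 2 groups with edgeR 4.0.16 in R 4.3.3 (filterByExpr, TMM, quasi-likelihood F test, Benjamini-Hochberg adjustment over all genes tested, threshold adjusted p under 0.05). SEs of log2 fold changes were taken as the size of the fold change over the square root of F. Levels are CPM on TMM sizes over all libraries of a species, and CPM per kilobase uses the exon length in the files. Reads carried no molecular identifiers, so a floor of 3 counts covers counting error only. The chi-square over its degrees of freedom between replicates was 1.83 to 5.1 in Caco-2 and 9.98 to 80.9 in mice, and no replicates were identical.

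The 7 genes and all lists were chosen with earlier results of these data known. Named beside them were DNMT3A, SLC12A2, SLC26A3 and GUCY2C, up to 5 highest and 5 lowest pathway genes past the threshold with a mean of at least 1 CPM in ΔDNMT3A against WT, both isoform lines against ΔDNMT3A and the mouse comparison, the 5 genes most like CFTR, and genes sharing exon bases. Promoter windows came from RefSeq on GRCh38.p14. Alternatives were DESeq2 1.42.0, RLE scaling, no filter, a gene length trend, all 4 lines in 1 fit, a replicate block, a lane term, each lane alone, and leaving out each library. On simulated counts in which 200 genes changed by 1 on the log2 scale, the fit recovered 90.5% among 16420 genes for ΔDNMT3A against WT (7.18% of its calls were false) and 76.5% among 14469 for the mice (1.92% false). The chloride secretion genes tested differed by less than 1 in these comparisons. In the measured counts 62.2% of genes passed in ΔDNMT3A against WT. These rates therefore do not give the power for those genes. Python 3.11.15, pandas 2.3.3, numpy 2.4.6, scipy 1.17.1 and matplotlib 3.10.9 were used. The authors' own comparisons, DNA methylation and protein data were not used here, and 1 gene that the naming rule chose is not reported.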

Additional observations from a re-analysis of the deposited data

Results flagged for a closer look

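KCNE3 in the libraries labelled DNMT3A2 had 1 library apart from the rest: 62.4 CPM, with the next at 60.8 CPM, a gap that is large only against the narrow range of that line. Cftr in fl/fl mice had 1 library at 288.3 CPM, with the next at 194.1 CPM, and that library also held the highest sum of crypt base and cycling markers. Of 35 groups of 4 libraries examined for such a gap, 2 had one, and chance gives about 1 in 20.

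The change from ΔDNMT3A was compared between the 2 isoform lines as DNMT3A1 against the libraries labelled DNMT3A2. All 7 genes passed there, where 68.5% of all genes passed, and 5 to 7 passed when single libraries were left out. Without DNMT3A1 replicate 4, KCNQ1 and KCNN4 did not. KCNQ1 passed the filter on low counts only through DNMT3A1, where it was highest. The genes were chosen with these data known, so the values are a description. The log2 difference was 1.59 for CFTR, whose change from ΔDNMT3A also had opposite signs in the 2 lines (1.26 and -0.33). It was 1.27 for KCNQ1, 0.85 for KCNN4, 0.75 for KCNE3, 0.75 for ATP1B1, 0.46 for ANO1 and 0.37 for CLCN2. Each line is 1 clone or 1 set of clones, and DNMT3A RNA was not higher in the libraries labelled DNMT3A2 than in ΔDNMT3A, so the isoform and the clone cannot be told apart.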

How the results depend on the processing

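Of 725 alternative values of the fold changes of the 7 genes, 698 kept their direction and their side of the threshold, 19 kept their direction but no longer passed, and 8 changed sign. Of the 641 in Caco-2, 620 kept both. The 2 there that changed sign were those of ATP1B1 in DNMT3A1 against WT, 0.063 within lane 6 alone and 0.006 without DNMT3A1 replicate 2, neither past the threshold. In the mice, where no value had passed, the sign changed for Ano1 without fl/fl replicate 2 (0.143), for Kcne3 with a length trend removed (-0.024), without ΔIEC replicate 1 (-0.053) or fl/fl replicate 4 (-0.01), and for Atp1b1 without ΔIEC replicate 4 (-0.051) or fl/fl replicate 3 (-0.013). Over all libraries left out in turn, these 4 fold changes ran from -0.069 to 0.006, from -0.189 to 0.143, from -0.053 to 0.18 and from -0.051 to 0.234. The 19 values that no longer passed belonged to KCNN4, KCNQ1, ANO1 and KCNE3. CFTR passed in every Caco-2 alternative, with -0.69 to -0.65 in ΔDNMT3A against WT. Of 222 alternative counts of genes past the threshold, 221 were within 1.5 times the reported count. The other was the 1 mouse pathway gene called by DESeq2 against 0. The cause was not tested.

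The replicate numbers were not taken as pairs, since the deviations of same-numbered libraries correlated by -0.161 to 0.131. With a replicate block, 42 pathway genes passed in ΔDNMT3A against WT in place of 41, and the count of chloride secretion genes past it stayed 6. The block changed no call among the fold changes of the 7 genes. Of 21 same-numbered pairs, 8 correlated best with their own number. Leaving out single libraries gave 37 to 40 pathway genes there. Low counts limit KCNQ1 and KCNN4, and the spread between 4 mice a group limits every mouse value.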
